A study of Mus musculus with 3 samples.

Results

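DNA replication and mitosis are read here through 33 genes, chosen by name from a fixed list of S-phase and mitotic genes and matched by symbol to the 43280 genes of the count tables. Of these, 17 belong to S phase and its onset and 16 to mitosis, and all 33 were among the 12127 genes that averaged at least 5 CPM (counts per 1e6 library counts). RNA came from primary cells of mouse calvarial (skull vault) mesenchyme at E15.5, a late embryonic stage, with 1 library per genotype. The control was fx/fx, with both alleles of the beta-catenin gene Ctnnb1 floxed, and had no Cre recombinase. The cKO was fx/fx and carried Dermo1-Cre, a Cre that mesenchymal cells make from the Twist2 locus. The dTF-cKO carried Dermo1-Cre too and was fx/dm. All 3 genotypes thus share at least 1 floxed allele. The dm allele is not defined in the labels; the Ctnnb1 dm allele known from mouse genetics encodes beta-catenin able to act in adhesion but unable to drive transcription. No fx/dm library without Cre was analysed here, cells that do not express Dermo1-Cre keep their beta-catenin, and the labels do not say how many embryos went into a library.

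A cell copies its genome once per cycle. In G1 the ORC, Cdc6 and Cdt1 proteins load the MCM helicase onto origins, and E2F1 and the E-type cyclins then promote entry into S phase, E2F1 by activating its genes. Nucleotides are supplied by ribonucleotide reductase, thymidylate synthase and thymidine kinase, and PCNA clamps the polymerases to the fork. The mitotic genes peak later, in G2 and mitosis, under B-MYB, FOXM1 and the DREAM complex, which acts through promoter elements called CHR, while E2F elements mark many S-phase promoters. In developing bone, transcripts of these genes are carried by dividing progenitors more than by mature osteoblasts.

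The libraries held 2678457 to 3634819 counts, and levels are CPM after scaling by trimmed mean of M values (TMM). With 1 library per genotype no difference between genotypes could be tested. The intervals given are exact 95% intervals that cover counting error only, and every difference is between libraries. Both comparisons with the control share the control library, and the comparison of dTF-cKO with cKO shares a library with each of them. In bulk RNA, fewer cycling cells and less RNA per cycling cell cannot be told apart. Ctnnb1 itself had 3669 counts in control, 2106 in cKO and 1236 in dTF-cKO. Sex differed along with Cre: Xist had 1233, 0 and 2 counts in the same order, and Y-linked genes together 0, 362 and 444 counts, so sex and Cre cannot be told apart.

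A gene is called 2-fold different here when its log2 CPM, computed with a prior count of 2 that shrinks low genes, differs by at least 1. In cKO the sums of the replication and mitosis genes lay close to control levels and no gene was called, though Plk1 came near with a plain ratio of 0.495. In dTF-cKO the summed S-phase counts were lower and the summed mitotic counts less so, with 10 of 17 S-phase genes and 1 of 16 mitotic genes called lower. Summed S-phase counts came to 1058 CPM in control, 1039 in cKO and 639.6 in dTF-cKO. Summed mitotic counts came to 1032, 1046 and 832.9 CPM. The dTF-cKO to control ratio was 0.604 (0.571 to 0.639) for the S-phase sum and 0.807 (0.766 to 0.850) for the mitotic sum, against 0.982 (0.935 to 1.03) and 1.01 (0.965 to 1.06) for the cKO. The 33 genes together took 0.206% of the control library, 0.220% of the cKO and 0.142% of the dTF-cKO. The side of the dTF-cKO sums depends on the scaling: with factors from stroma genes instead of TMM, they lay above the control, at 2.09 for S phase and 2.79 for mitosis.

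**Figure D1:**
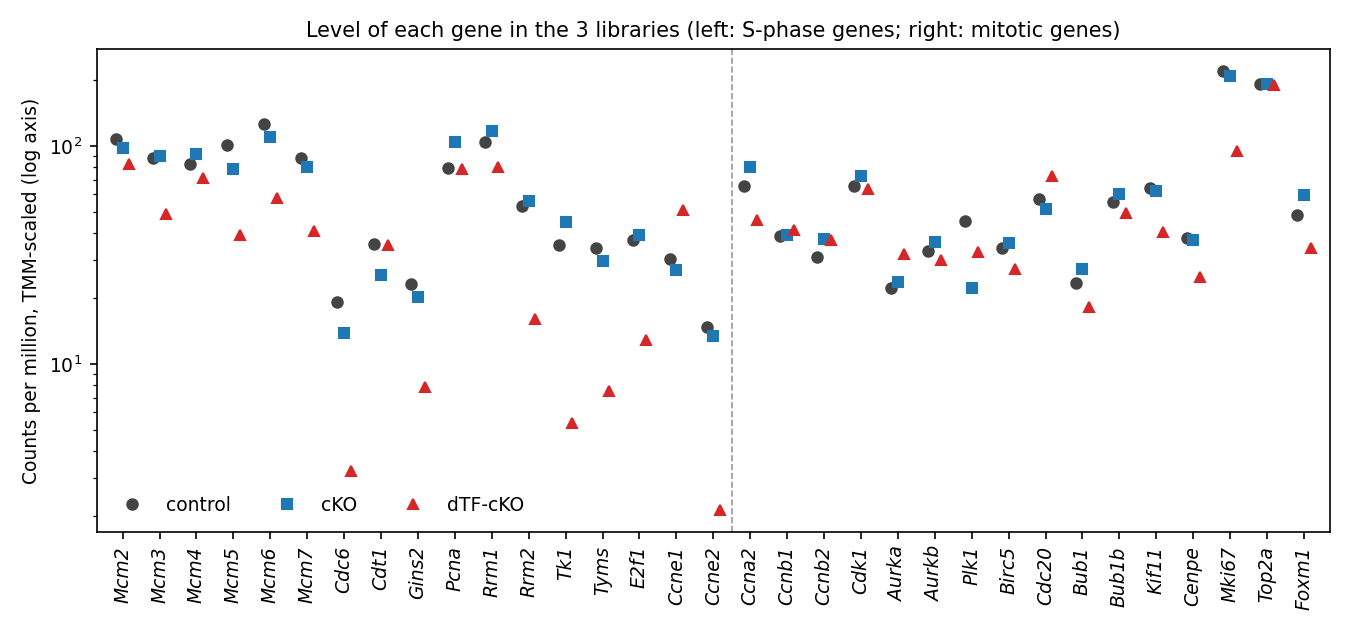
Level of each gene in TMM-scaled CPM on a log axis, with 1 point per library (circle control, square cKO, triangle dTF-cKO) and the 17 S-phase genes left of the dashed line. Most dTF-cKO triangles of the S-phase genes lie below the other points, down to 2.14 CPM for Ccne2, while many mitotic triangles lie among them.

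Counted gene by gene, 11 of 33 were at least 2-fold lower in dTF-cKO than in control and none was higher. Among all measured genes 20.9% were lower by that much and 19.5% higher. The 11 comprised 10 of 17 S-phase genes, Mcm5, Mcm6, Mcm7, Rrm2, Tk1, Tyms, Cdc6, Gins2, E2f1 and Ccne2, and 1 of 16 mitotic genes, Mki67. The S-phase share was above the background share of lower genes, and the mitotic share was below it. The median log2 difference was -1.11 for the S-phase genes and -0.24 for the mitotic genes, beside 0.06 for all measured genes. Lower by any amount were 16 of 17 S-phase and 12 of 16 mitotic genes, against 47.6% of all measured genes. The counting interval lay below 1 for 13 S-phase and 6 mitotic genes and above 1 for 1 and 2, where 32.2% of all measured genes had it below and 37.5% above.

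**Figure D2:**
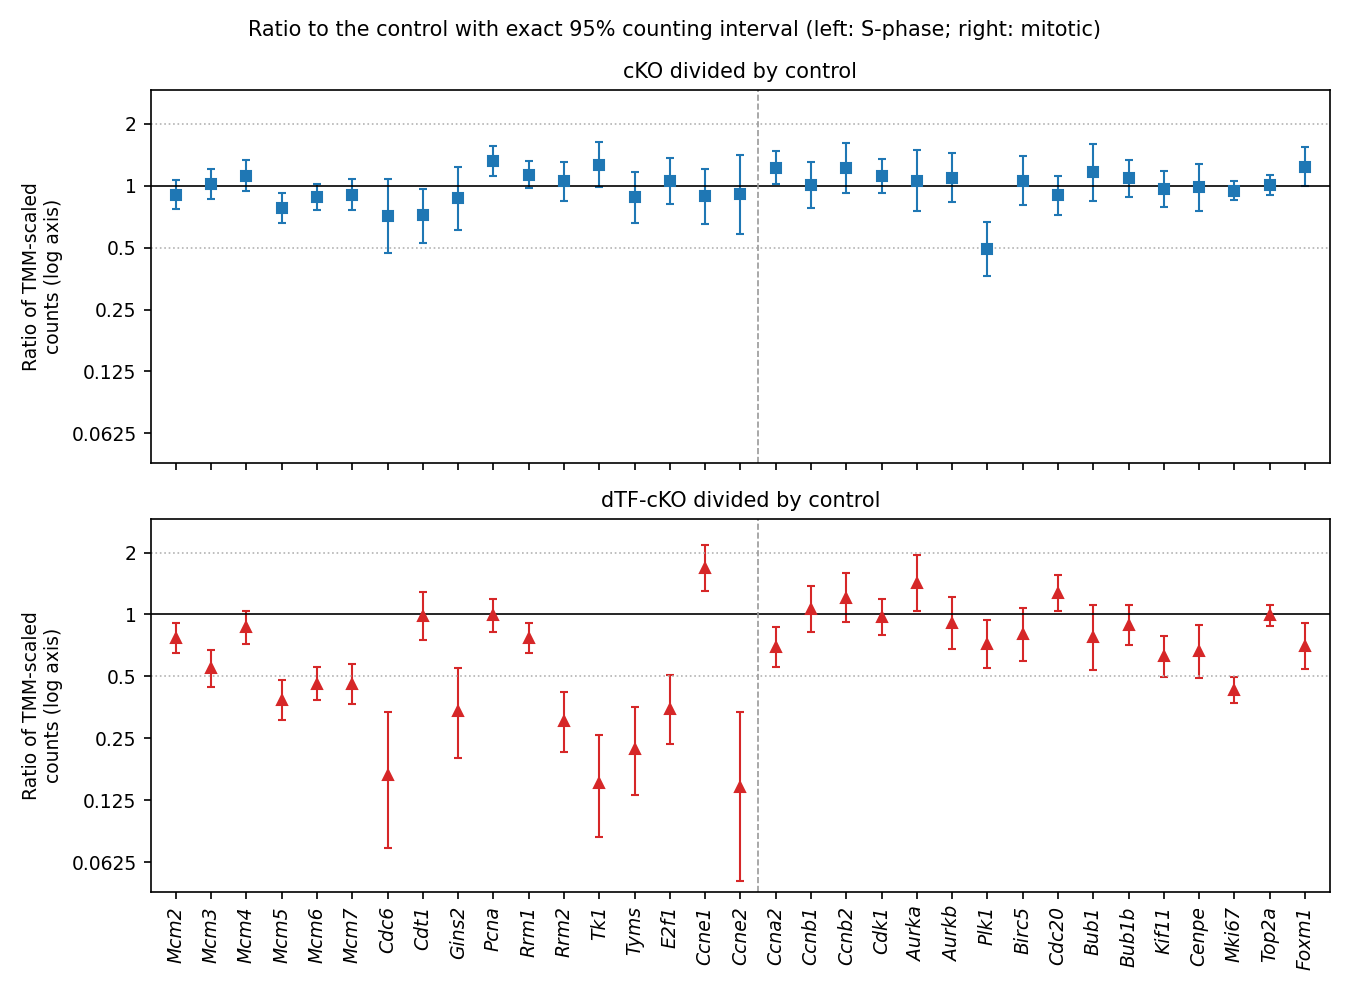
Ratio of each gene's scaled counts to the control on a log axis, for the cKO (upper panel) and the dTF-cKO (lower panel), with exact 95% counting intervals, the S-phase genes left of the dashed line and dotted lines at 2-fold. The cKO points spread from 0.495 for Plk1 to 1.31 for Pcna, most of them near 1. The dTF-cKO points spread from 0.145 for Ccne2 to 1.68 for Ccne1.

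The MCM helicase genes encode the 6 subunits of the ring that unwinds DNA at the fork. They were not lower to one degree in dTF-cKO. Mcm5 stood at 101 CPM in control, 78.5 in cKO and 38.9 in dTF-cKO, and was 2.59-fold lower (2.09 to 3.24) in dTF-cKO than in control. Mcm6 stood at 125.6, 110.4 and 57.9 CPM and was 2.17-fold lower (1.81 to 2.61), and Mcm7, at 88.4, 79.9 and 40.7 CPM, was 2.17-fold lower (1.75 to 2.71). In the annotation 12.6% of the Mcm7 exon bases are shared with other genes, so its counts carry that uncertainty. For these 3 subunits the dTF-cKO was the lowest library, and for Mcm5 the cKO also lay below the control, at a ratio of 0.778 (0.655 to 0.922). Mcm3, just short of the 2-fold rule, stood at 88.4, 90.2 and 48.6 CPM with a log2 difference of -0.85. Mcm2 (107.4, 97.3 and 82.9 CPM) and Mcm4 (82.2, 92.0 and 71.5 CPM) differed less. Their dTF-cKO to control ratios were 0.772 (0.653 to 0.911) and 0.869 (0.722 to 1.04), and of these 2 only the Mcm4 interval spans 1. Summed over the ring, the dTF-cKO to control ratio was 0.574 (0.531 to 0.620) and that of the cKO 0.925 (0.865 to 0.988).

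Among the origin licensing and firing genes, Cdc6, the loader that brings the MCM ring to ORC, had 69 counts in control, 39 in cKO and 9 in dTF-cKO. Scaled, it was 6.0-fold lower (2.99 to 13.7) in dTF-cKO than in control, an interval made wide by 9 counts. Gins2, a subunit of the GINS complex that activates the helicase, had 83, 57 and 22 counts and was 2.95-fold lower (1.83 to 4.96). In the annotation 67.3% of the Gins2 exon bases lie opposite exons of Gse1, so without a known strand setting its counts are uncertain. Cdt1, the partner of Cdc6 in loading, was lowest in cKO instead, with 127, 72 and 98 counts and a dTF-cKO to control ratio of 0.986 (0.749 to 1.29). Pcna, the sliding clamp, also did not differ between these libraries beyond counting error, at 79.4 and 78.6 CPM, with 104.4 CPM in cKO. Pseudogene copies of Pcna are listed in the tables, so its reads may be split. Of these copies, Pcna-ps2 had 85 counts in control, 34 in cKO and 32 in dTF-cKO, which the Pcna values leave out.

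Of the S-phase role groups, nucleotide supply had the lowest summed dTF-cKO to control ratio. Tk1, the thymidine kinase of the salvage pathway, had 126 counts in control, 126 in cKO and 15 in dTF-cKO, which made it 6.58-fold lower (3.84 to 12.1) in dTF-cKO than in control. Tyms, the synthase of thymidylate, had 121, 84 and 21 counts and was 4.51-fold lower (2.82 to 7.55). Both routes to thymidylate were thus low in dTF-cKO alone. Rrm2, the regulated small subunit of ribonucleotide reductase, had 190, 158 and 45 counts and was 3.31-fold lower (2.38 to 4.68). Rrm1, the large subunit of the same enzyme, had 371, 332 and 223 counts and a ratio of 0.768 (0.647 to 0.909). Over the 4 genes the dTF-cKO to control ratio was 0.481 (0.420 to 0.549) and the cKO to control ratio 1.10 (0.989 to 1.21).

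The G1/S regulators split. E2f1, a transcription factor that activates S-phase genes, had 132 counts in control, 110 in cKO and 36 in dTF-cKO and was 2.87-fold lower (1.97 to 4.27) in dTF-cKO. Ccne2, encoding cyclin E2, had 53, 38 and 6 counts and was 6.92-fold lower (2.98 to 19.7). Ccne1, encoding its close relative cyclin E1, had 108, 76 and 142 counts and a ratio of 1.68 (1.30 to 2.18), the highest of the 33 genes in dTF-cKO. Under TMM the E-type cyclins thus lay on opposite sides of the control in the same library, but with factors from ubiquitous genes the Ccne1 ratio was 1.03, near the control. Within Ccne2, 17.4% of exon bases lie opposite Ints8.

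Promoter sequences show what these genes share in their upstream DNA. The 7 stretches below were chosen to set 2 MCM genes and Mki67, all called lower, beside genes that were not called lower. RefSeq windows (assembly GRCm38.p6, from 250 bases before to 50 after the start) were matched for 27 of the 33 genes, all but Mcm4, Gins2, Ccne2, Ccna2, Aurkb and Foxm1. The letters run 5′ to 3′ on the gene's strand. Capitals mark exact matches, on either strand, to the E2F words TTTCCCGC, TTTCGCGC, TTTGCCGC and TTTGGCGC, the CHR words TTTGAA and TTCGAA, and the CCAAT box. Where E2F words overlap, the capitals run on, as in the first Mcm5 block and the first Mcm6 block. Positions count back from -1, the base before the RefSeq start. Coordinates are Mcm5 chr8:75109309-75109508 (+ strand, -200 to -1), Mcm6 chr1:128359706-128359905 (- strand, -200 to -1), Ccne1 chr7:38107535-38107690 (- strand, -200 to -45), Mki67 chr7:135716380-135716579 (- strand, -200 to -1), Cdc20 chr4:118437353-118437543 (- strand, -200 to -10), Cdk1 chr10:69352939-69353112 (- strand, -200 to -27) and Top2a chr11:99024190-99024389 (- strand, -200 to -1).
Mcm5: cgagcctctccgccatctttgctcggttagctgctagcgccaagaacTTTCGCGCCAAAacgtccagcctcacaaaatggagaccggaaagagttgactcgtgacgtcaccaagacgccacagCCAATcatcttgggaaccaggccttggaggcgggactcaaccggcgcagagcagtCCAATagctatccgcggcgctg
Mcm6: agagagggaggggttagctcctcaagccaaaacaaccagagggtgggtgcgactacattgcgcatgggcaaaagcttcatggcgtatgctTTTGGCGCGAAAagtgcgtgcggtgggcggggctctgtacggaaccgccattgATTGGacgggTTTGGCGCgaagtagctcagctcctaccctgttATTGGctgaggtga
Ccne1: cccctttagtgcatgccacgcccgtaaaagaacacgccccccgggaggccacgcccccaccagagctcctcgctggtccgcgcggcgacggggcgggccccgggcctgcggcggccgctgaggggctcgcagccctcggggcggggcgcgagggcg
Mki67: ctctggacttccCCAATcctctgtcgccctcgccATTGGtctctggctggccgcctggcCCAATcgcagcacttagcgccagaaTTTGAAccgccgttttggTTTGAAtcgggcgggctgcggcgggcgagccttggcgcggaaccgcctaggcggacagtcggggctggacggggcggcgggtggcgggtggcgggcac
Cdc20: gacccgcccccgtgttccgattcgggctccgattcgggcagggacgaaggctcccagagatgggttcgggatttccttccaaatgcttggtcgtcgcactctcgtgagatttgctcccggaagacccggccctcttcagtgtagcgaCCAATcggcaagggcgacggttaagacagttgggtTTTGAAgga
Cdk1: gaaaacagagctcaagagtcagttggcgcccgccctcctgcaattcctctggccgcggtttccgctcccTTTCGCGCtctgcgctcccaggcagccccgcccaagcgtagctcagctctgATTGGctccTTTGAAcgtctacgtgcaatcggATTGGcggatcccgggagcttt
Top2a: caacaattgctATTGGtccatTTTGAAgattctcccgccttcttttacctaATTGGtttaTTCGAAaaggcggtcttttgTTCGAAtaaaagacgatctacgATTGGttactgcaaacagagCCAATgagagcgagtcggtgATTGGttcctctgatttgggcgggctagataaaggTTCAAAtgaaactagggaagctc

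In the Mcm5 stretch the E2F block lies farther from the start than the CCAAT boxes, and Mcm6 holds its E2F words on both sides of a CCAAT box. The GC-rich Ccne1 stretch holds none of these words. The 4 mitotic stretches carry CHR words, 1 each in Cdc20 and Cdk1, 2 in Mki67 and 4 in Top2a, and all carry CCAAT boxes. Mki67 was 2.33-fold lower in dTF-cKO and Top2a was not, although both stretches hold CHR words and CCAAT boxes. Over whole windows, an E2F word was found in 6 of 14 S-phase genes (Cdc6, Cdt1, Mcm3, Mcm5, Mcm6 and Mcm7) and in 1 of 13 mitotic genes (Cdk1), beside 2.26% of 32851 windows of the same length. A CHR word was found in 2 of 14 S-phase and 10 of 13 mitotic genes, beside 19.2% of windows, and a CCAAT box in 8 of 14 and 12 of 13, beside 37.4%. In dTF-cKO the median log2 difference from the control was -1.11 in the 6 S-phase genes with an E2F word and -0.93 in the 8 without. Each set held 4 genes at least 2-fold lower. The values ran from -2.37 (Cdc6) to -0.02 (Cdt1) with a word and from -2.58 (Tk1) to 0.74 (Ccne1) without. Whether E2F sites bear on the differences was not tested. Tk1, Tyms, Rrm2 and E2f1 are among those with no exact match, which says only that these letters are absent from these windows.

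Among the mitotic genes, Mki67, which encodes the proliferation antigen Ki-67 that coats mitotic chromosomes, stood apart. It had 787 counts in control, 589 in cKO and 265 in dTF-cKO, or 220.1, 208.4 and 94.7 CPM, and was 2.33-fold lower (2.02 to 2.68) in dTF-cKO than in control. Top2a, the topoisomerase that untangles sister chromatids, stood at 191.3, 192.4 and 189.7 CPM, a dTF-cKO to control ratio of 0.992 (0.884 to 1.11). These are the most abundant of the 33 genes by counts, and only Mki67 was low in dTF-cKO.

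Of Cdk1 and its cyclins, only Ccna2 had counting intervals that exclude 1. Cdk1, the kinase that drives entry into mitosis, stood at 65.2 CPM in control, 72.9 in cKO and 63.6 in dTF-cKO. The B-type cyclin genes Ccnb1 (38.6, 38.9 and 41.1 CPM) and Ccnb2 (30.8, 37.5 and 37.2 CPM) were not below the control in either library. Ccna2, encoding cyclin A2, which acts in S phase as well as in mitosis, stood at 65.7, 80.3 and 45.7 CPM, with a dTF-cKO to control ratio of 0.696 (0.557 to 0.867) and a cKO to control ratio of 1.22 (1.01 to 1.47). In the annotation 12.5% of its exon bases lie opposite Exosc9.

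Under TMM the mitotic kinase and checkpoint genes lay on both sides of the control in dTF-cKO. Aurka, a spindle pole kinase, had 80, 67 and 89 counts and a dTF-cKO to control ratio of 1.42 (1.04 to 1.95), the highest of the mitotic genes. Cdc20, the activator of the anaphase-promoting complex, had 204, 145 and 203 counts and a ratio of 1.27 (1.04 to 1.55). These 2 were the mitotic genes whose interval lay above 1. Aurkb and Birc5, both of the chromosomal passenger complex, had ratios of 0.909 and 0.802, and the spindle checkpoint genes Bub1 and Bub1b 0.776 and 0.890, all 4 with intervals that span 1. Plk1, a kinase of mitotic entry and spindle assembly, had 161 counts in control, 63 in cKO and 91 in dTF-cKO. It alone of these genes had a cKO to control interval that excludes 1. Its cKO to control ratio was 0.495 (0.364 to 0.666), with a log2 difference of -0.99 that fell just short of the 2-fold rule, and its dTF-cKO to control ratio was 0.722 (0.552 to 0.939).

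The motor genes were lower in dTF-cKO than in control, with intervals below 1. Kif11, the kinesin that pushes spindle poles apart, stood at 64.3 CPM in control, 62.3 in cKO and 40.4 in dTF-cKO, and Cenpe, the kinesin of the kinetochore, at 37.8, 37.1 and 25.01 CPM. Their dTF-cKO to control ratios were 0.628 (0.497 to 0.789) and 0.662 (0.489 to 0.890). Foxm1, the transcription factor of G2 and M genes, stood at 48.4, 59.8 and 33.9 CPM, a ratio of 0.701 (0.540 to 0.906).

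Set against each other, the groups parted in dTF-cKO. The ratio of summed mitotic to summed S-phase counts within a library needs no scaling between libraries. It was 0.975 (0.932 to 1.02) in control, 1.01 (0.956 to 1.06) in cKO and 1.30 (1.22 to 1.39) in dTF-cKO. The control and the cKO had intervals that overlap, and the dTF-cKO lay above both. Divided by the control's ratio, the dTF-cKO came to 1.34 (1.24 to 1.44) and the cKO to 1.03 (0.963 to 1.11). By the groups' median ratios, which weigh each gene alike, the dTF-cKO value was larger, at 1.83.

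**Figure D3:**
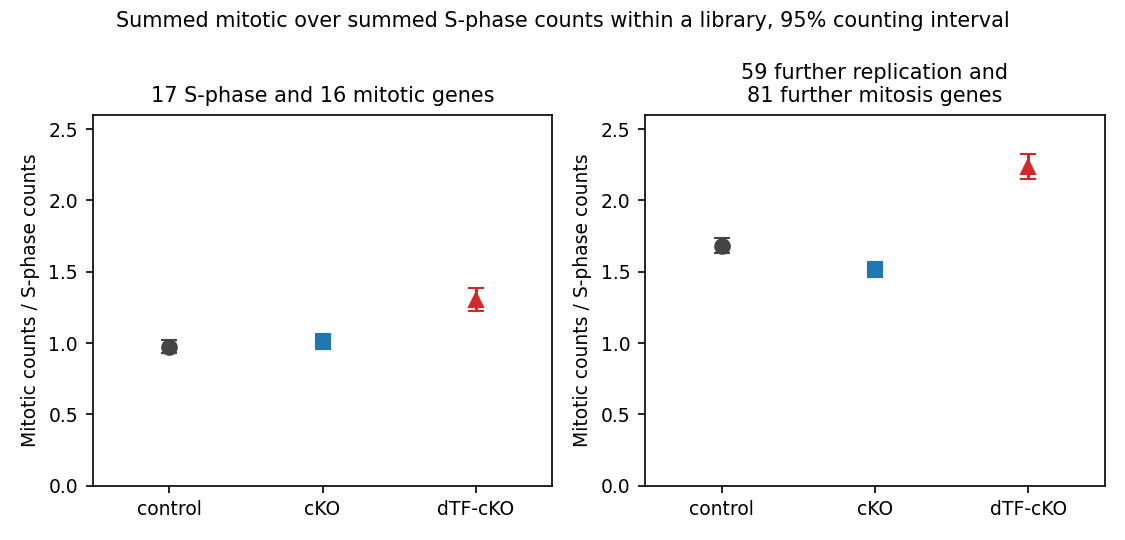
Summed mitotic over summed S-phase counts within each library, with exact 95% counting intervals, for the 33 genes (left) and for 59 further replication and 81 further mitosis genes (right). In both panels the dTF-cKO is highest, at 1.30 and 2.23, and the control and the cKO lie lower.

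Pairs of partner genes, chosen after their values were seen, show, without scaling, that genes within the S-phase group or within the mitotic group also parted from each other in dTF-cKO. Counts of Ccne1 to Ccne2 stood at 2.04 (1.45 to 2.89) in control, 2.0 in cKO and 23.7 (10.6 to 65.6) in dTF-cKO. Cdt1 to Cdc6 stood at 1.84, 1.85 and 10.9 (5.51 to 24.5). The control and the cKO gave nearly the same value for both pairs. Rrm1 to Rrm2, the subunits of 1 enzyme, went from 1.95 and 2.10 to 4.96 (3.58 to 6.99), and Mcm2 to Mcm5, of 1 ring, from 1.06 and 1.24 to 2.13 (1.69 to 2.698). On the mitotic side Top2a to Mki67 went from 0.869 and 0.924 to 2.004 (1.73 to 2.33). Ccnb1 to Ccna2 stood at 0.587 (0.472 to 0.728), 0.485 (0.382 to 0.611) and 0.898 (0.692 to 1.16). Aurka to Aurkb stood at 0.678 (0.504 to 0.908), 0.657 (0.475 to 0.903) and 1.06 (0.777 to 1.44). The control and dTF-cKO intervals overlap in both pairs, but such overlap does not measure the difference between the libraries. The cKO and dTF-cKO intervals overlap for Aurka to Aurkb and not for Ccnb1 to Ccna2. As these pairs were picked for their difference, their values are a description.

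In cKO the picture was even. By the log2 rule with its prior count no S-phase or mitotic gene was called, where 6.78% of all measured genes were lower and 9.66% higher. The median log2 difference was -0.14 for the S-phase genes and 0.08 for the mitotic genes, and 10 of 17 and 5 of 16 lay below 0, beside 45.4% of all measured genes. Plk1 (log2 difference -0.99, plain ratio 0.495) sat at the edge of the rule, and 1 gene was called lower under DESeq2 factors, totals without the 20 most abundant genes, ubiquitous or stroma factors, and a prior count of 0.5. Counting intervals spanned 1 for 28 of 33 genes. They lay below 1 for Mcm5 (ratio 0.778), Cdt1 (0.717) and Plk1 and above 1 for Pcna (1.31) and Ccna2 (1.22). Of all measured genes 19.2% had an interval below and 25.1% above. The Pcna ratio leaves out the counts of its pseudogene Pcna-ps2, which were highest in control. Cdk1 and its cyclins summed to a ratio of 1.15 (1.03 to 1.28), and the licensing and firing genes to 0.761 (0.625 to 0.925).

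Between the 2 Cre libraries, 8 genes were at least 2-fold lower in dTF-cKO than in cKO and none was higher, beside 20.5% and 14.5% of all measured genes. They were Rrm2, Tk1, Tyms, Cdc6, Gins2, E2f1, Ccne2 and Mki67. Tk1 was 8.32-fold lower (4.85 to 15.3), Ccne2 6.27-fold lower (2.63 to 18.1) and Cdc6 4.29-fold lower (2.04 to 10.1). Mcm5, Mcm7 and Mcm6 missed the log2 rule by little, at -0.9998, -0.96 and -0.92, and the plain ratio of Mcm5, without the prior count, was 0.496. The interval lay below 1 for 14 of 17 S-phase genes and 6 of 16 mitotic genes, and above 1 for Cdt1, Ccne1, Cdc20 and Plk1, where 32.5% of all measured genes had it below and 33.9% above. Lower by any amount were 27 of 33, against 49.7% of all measured genes. The sums gave a dTF-cKO to cKO ratio of 0.616 (0.580 to 0.653) for S phase and 0.796 (0.754 to 0.841) for mitosis, and a mitotic to S-phase ratio 1.29 times that of the cKO (1.19 to 1.40).

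Per length, which allows levels of different genes to be compared, Pcna (33.1 CPM per kilobase of exon) and Cdc20 (30.5) led in control, and Cdc6 (3.69) and Ccne2 (4.24) were lowest. The order in cKO was similar at both ends, but Plk1 moved from rank 9 to rank 21 at 10.1. In dTF-cKO Cdc20 (38.8) and Pcna (32.8) still led, but Ccne1 moved from rank 18 to rank 6 at 19.1, Rrm2 from 12 to 24 at 5.80 and Mki67 from 7 to 19 at 9.41. Neighbours in this order often differ by less than their counting error. The groups had similar lengths, with a median of 3993 exon bases for the S-phase genes and 4246 for the mitotic genes. Over all genes with a known length, split into 3 equal sets, the shortest, middle and longest had median log2 differences between dTF-cKO and control of 0.19, 0.02 and -0.03.

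Other genes of the same machinery, listed for this work with earlier results of these data known, gave a wider view. Of 59 further replication genes 17 were at least 2-fold lower in dTF-cKO than in control and 2 higher, with a median log2 difference of -0.44. Of 79 measured further mitosis genes (of 81 listed; Kif18a and Oip5 lay under the floor) 17 were lower and 3 higher, and their median was -0.24. The share of lower genes was thus nearer to the background of 20.9% in the mitosis list than in the replication list. At least 2-fold higher were 19.5% of all measured genes. In cKO the replication list held 1 higher and no lower gene and the mitosis list none of either. Of all measured genes 9.66% were higher and 6.78% lower in cKO. Within a library, mitosis to replication counts stood at 1.68 in control, 1.52 in cKO and 2.23 in dTF-cKO. The dTF-cKO to control ratio of these was 1.33 (1.26 to 1.40), and that of the cKO, 0.901 (0.860 to 0.944), lay on the other side of 1. Without Hjurp and Ncaph2, the most abundant genes of the mitosis list, the dTF-cKO value was 1.22 (1.16 to 1.28).

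Genes of the replication list with large differences were named by size. Wdhd1, a replisome adaptor, had 76 counts in control, 76 in cKO and 10 in dTF-cKO and was 5.95-fold lower (3.06 to 12.9) in dTF-cKO than in control. Exo1, an exonuclease, had 47, 38 and 7 counts and was 5.26-fold lower (2.36 to 13.8). Orc4, a subunit of the origin recognition complex, was higher, with 40, 55 and 133 counts, 4.25 times the control (2.96 to 6.21). Tipin, of the fork protection complex, had 46, 84 and 40 counts and was the gene higher in cKO, at 2.31 times the control (1.59 to 3.38). Against the cKO, Pole, the catalytic subunit of the leading-strand polymerase, was 3.77-fold lower (2.43 to 6.05) in dTF-cKO.

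In the mitosis list Gtse1, which encodes a microtubule-associated protein, had 78, 57 and 248 counts, 4.06 times the control (3.14 to 5.31) in dTF-cKO. Fam64a (now Pimreg) had 128, 113 and 31 counts and was 3.23-fold lower (2.17 to 4.95). The kinetochore genes Cenpn (47, 32 and 11 counts) and Cenpf (200, 133 and 53 counts) were 3.35-fold and 2.95-fold lower. Against the cKO, the kinetochore gene Nuf2 was 3.58-fold lower (2.19 to 6.12) and Psrc1, a spindle protein, 2.97 times as high (2.29 to 3.88).

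The 18 E2F and DREAM regulators had a median log2 difference of 0.01 in dTF-cKO, with 5 at least 2-fold higher and 2 lower, where 19.5% and 20.9% of all measured genes were. E2f2, an activator E2F like E2f1, had 66, 50 and 11 counts and was 4.70-fold lower (2.46 to 9.86) in dTF-cKO than in control. Mybl2, which encodes B-MYB, had 62, 35 and 19 counts and was 2.55-fold lower (1.51 to 4.52). Of the DREAM subunits, Lin54 (39, 45 and 87 counts) and Lin37 (25, 36 and 51 counts) stood at 2.85 and 2.61 times the control. E2f4, the E2F that works within DREAM as a repressor, was 2.24 times as high in dTF-cKO as in cKO (1.85 to 2.72), with 189, 158 and 351 counts. The other 2 genes at least 2-fold higher than the control, named after their values were seen, were Rb1 (63, 83 and 106 counts) and E2f8 (71, 96 and 120 counts), both repressors of E2F target genes. The remaining genes of the list did not reach the 2-fold rule. The log2 difference was 0.71 for E2f7, 0.17 for Rbl1, 0.13 for Tfdp1 and 0.04 for Rbbp4. It was -0.03 for E2f3, -0.17 for Lin52, -0.37 for E2f5 and -0.44 for Lin9. For E2f6, Rbl2 and Tfdp2 it was -0.60, -0.61 and -0.88.

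Cell makeup differed between the libraries beside these results. The 8 osteoblast markers summed to 18.2% of the control library, 4.14% of the cKO and 0.799% of the dTF-cKO, and the 8 mesenchyme markers to 1.11%, 1.05% and 0.375%, with no marker of either list at 0. Col3a1 made up most of the mesenchyme sum, with 34177, 24522 and 9275 counts. In that list 2 of 8 markers went the other way and were higher in dTF-cKO than in control. They were Twist2 (21, 80 and 35 counts) and Msx2 (73, 49 and 93 counts). Basal epidermis markers summed to 0.0132%, 0.506% and 0.895%, led by Krt5 with 12663 counts in dTF-cKO. Upper epidermis markers reached 1.65% in cKO, with Flg at 0, and 0.0377% in dTF-cKO. Skeletal muscle markers went from 0.1247% to 0.0208% and 0.000482%, with Ckm, Myog, Myod1 and Pax7 at 0 in dTF-cKO, and endothelial markers from 0.0559% and 0.0775% to 0.0130%. Erythroid markers, mostly globins, summed to 0.644%, 0.576% and 1.54%, and Klf1 had 1 count in control and 0 in both Cre libraries, too few to compare. Smaller lists gave, in the order control, cKO, dTF-cKO, 0.0776%, 0.258% and 0.0348% for chondrocytes, 0.0871%, 0.0207% and 0.0128% for osteoclasts, and 0.0239%, 0.0362% and 0.0196% for macrophages. Among the macrophage markers Cd68 went the other way, with 83, 45 and 231 counts, while Csf1r had 373, 301 and 69. Hair and regenerating epidermis markers reached 0.209% in dTF-cKO (control 0.00336%, cKO 0.0394%), led by Krt17. In that list Shh and Lhx2 were at 0 in dTF-cKO, and Lhx2 went the other way, with 66 counts in control and 5 in cKO. Melanocyte and Schwann cell or neuron markers stayed at or below 0.0156% in each library. The part of cell makeup in the differences was not tested.

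Scaling set the size, and at one extreme the side, of the dTF-cKO differences. TMM, library totals and DESeq2 factors placed the S-phase sum at 0.592 to 0.617 of the control. Factors from 24 ubiquitous genes gave 0.369 for S phase and 0.493 for mitosis. Factors from 44 genes of dermis, meninges, mural cells and endothelium, whose own median log2 difference from the control was -1.83 in dTF-cKO, gave 2.09 and 2.79, above the control. Over the 6 scalings the dTF-cKO to control ratio ran from 0.0930 to 0.526 for Tk1, 0.136 to 0.767 for Tyms, 0.102 to 0.577 for Cdc6, 0.0884 to 0.501 for Ccne2 and 1.03 to 5.81 for Ccne1. These values stay on 1 side of 1 without their counting error, and the other 28 genes were found on both sides. Under every scaling the S-phase sum was below the mitotic sum, since their ratio does not depend on it.

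**Figure D4:**
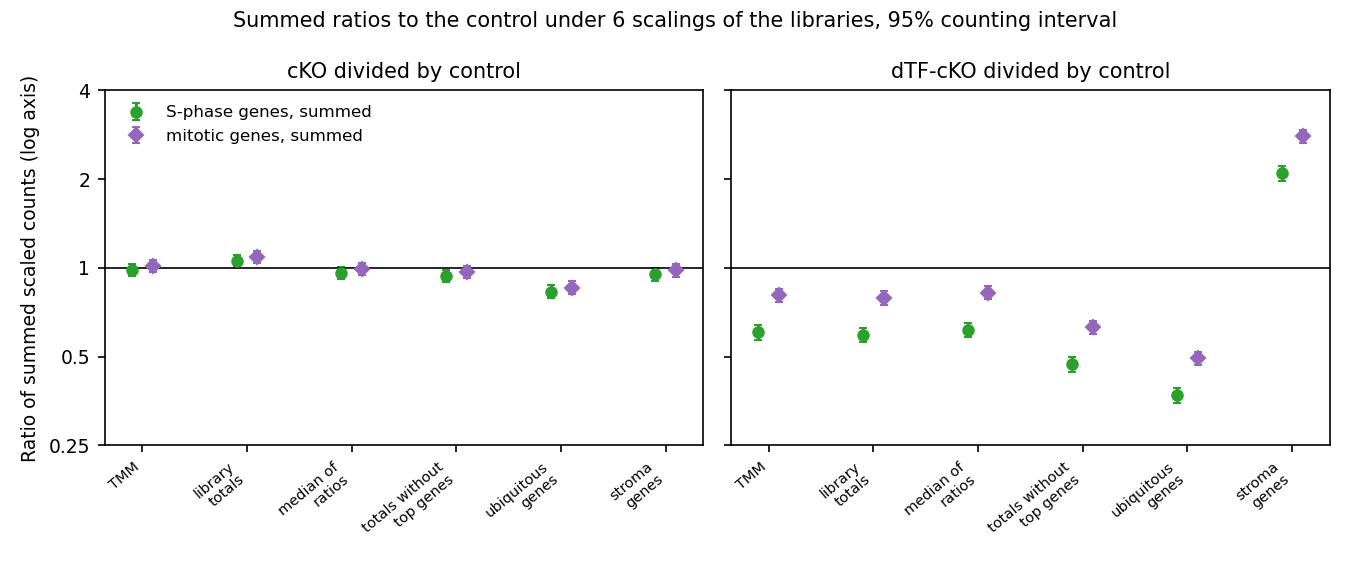
Summed S-phase (circles) and mitotic (diamonds) counts relative to the control on a log axis under 6 scalings of the libraries, with exact 95% counting intervals, for the cKO (left) and the dTF-cKO (right). The cKO stays between 0.831 and 1.09, whereas the dTF-cKO ranges from 0.369 to 2.79, with the S-phase sum below the mitotic sum at each scaling.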

How the data were processed

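PolyA RNA was sequenced after RNeasy extraction and Ion Total RNA-Seq library preparation, per the labels' protocols, as 1 library per genotype. The authors deposited raw counts per gene symbol, without normalisation. The submitters' processing notes name the build mm10. How reads were aligned and counted, and whether strand was used, is not given in the sources used here. Among the listed symbols 27 had been turned into dates, and none is a gene described here.

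Counts were scaled with TMM factors (0.984, 1.06 and 0.963 for control, cKO and dTF-cKO) in edgeR 4.0.16 under R 4.3.3. A log2 difference is the first-named library minus the second, in log2 CPM with a prior count of 2, and a gene was called higher or lower at a size of at least 1, a 2-fold difference. Genes averaging at least 5 CPM over the 3 libraries were measured. Folds and ratios leave out the prior count and carry exact conditional (Clopper-Pearson) 95% intervals made with scipy 1.17.1. The mitotic to S-phase comparison is an odds ratio with its exact conditional interval. No p-value was computed, as 1 library per genotype leaves no replicate. Intervals cover counting error only, since 1 library per genotype gives no spread between libraries. PCR duplicates cannot be recognised without molecular identifiers, so the intervals may understate even the counting error. The scaling and intervals were run on simulated counts with counting error only, in which a small set of genes changed equally in both directions. As far more genes differed between the real libraries, that run cannot tell which scaling suits them.

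The genes and lists were chosen with earlier results of these data known. All 33 genes are named, and from each further list up to 4 genes with the largest log2 difference among those past 2-fold in a comparison. The values of 1 gene that this rule names are not reported here. Older symbols were matched through synonyms for 5 listed genes. Exon lengths and overlaps come from GENCODE vM21 (GRCm38), which may not be the annotation the authors used, and promoters from RefSeq. Printed promoter stretches run up to 200 bases and end before every annotated start of the gene. The alternatives were library totals, DESeq2 1.42.0 factors, totals that leave out each library's 20 most abundant genes, factors from ubiquitous or stroma genes, other prior counts, floors and size rules, and other ways of summing.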

Additional observations from a re-analysis of the deposited data

How the results depend on the processing

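The mitotic to S-phase ratio relative to the control stayed within its counting interval when the most abundant gene of each group, E2f1 with the cyclin E genes, or Ccna2 with Foxm1 was left out, at 1.30 to 1.37 in dTF-cKO and 1.01 to 1.05 in cKO. Leaving out the genes that share over 10% of their exon bases with another gene, an alternative chosen after seeing the data, gave 1.29 and 1.01. The groups' medians gave 1.17 for cKO to control, 1.83 for dTF-cKO to control and 1.61 for dTF-cKO to cKO. Leaving out Hjurp and Ncaph2 was likewise chosen after seeing the data.

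For the sums, library totals gave 1.05 (S phase) and 1.09 (mitosis) for cKO to control and 0.562 and 0.727 for dTF-cKO to cKO. Totals without the 20 most abundant genes gave 0.471 and 0.628 for dTF-cKO to control and 0.501 and 0.648 for dTF-cKO to cKO. Ubiquitous genes gave 0.831 and 0.858, 0.369 and 0.493, and 0.445 and 0.575 for the comparisons in the order cKO to control, dTF-cKO to control, dTF-cKO to cKO. Stroma genes turned the dTF-cKO sums to 2.09 and 2.79 against the control and 2.20 and 2.85 against the cKO. The median of the S-phase genes' ratios was 0.906, 0.461 and 0.509 in the same order, and the mitotic sum without its most abundant gene was 0.765 and 0.753 for the dTF-cKO against control and cKO.

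In cKO 1 gene was lower than the control by the size rule under DESeq2 factors, totals without the 20 most abundant genes, ubiquitous genes, stroma genes, a prior count of 0.5, or a 1.5-fold rule. By intervals excluding 1, 3 were lower and 2 higher. The share of all measured genes was computed for the main rule and the intervals only. The counts under the other settings here thus have no background beside them. Below the control in dTF-cKO were 21 genes with ubiquitous genes, 0 with stroma genes, 5 at 3-fold and 19 by intervals; higher were 21, 1 and 3 with stroma genes, at 1.5-fold and by intervals. Below the cKO in dTF-cKO were 14 without the 20 most abundant genes, 18 with ubiquitous genes, 1 with stroma genes, 15 at 1.5-fold, 5 at 3-fold, 20 by intervals and 5 at a floor of 20 CPM; higher were 21, 1 and 4 with stroma genes, at 1.5-fold and by intervals. With stroma genes the ratio to the control turned above 1 for Mcm5 (1.34), Mcm6 and Mcm7 (1.60 each), Rrm2 (1.05), Gins2 (1.17), E2f1 (1.21) and Mki67 (1.49), and the ratio to the cKO for Rrm2 (1.03), Gins2 (1.39), E2f1 (1.18) and Mki67 (1.62). The cause of these changes beyond the choice of scaling genes was not tested.

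No paired analysis was possible because each genotype has 1 library. Depth limits the low genes most: Ccne2 rests on 6 counts and Cdc6 on 9 in dTF-cKO.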
